A study of Mus musculus with 11 samples.

Results

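Dusp1, Sik1, Per1 and Atf3 are genes that neuronal activity induces and whose products feed back on the signalling or transcription that induced them. Open chromatin around them was read from ATAC-seq peak lists of mouse dentate gyrus. All peaks within 50 kb of the 4 transcription starts were taken, on build mm9 with the starts given to the nearest 1 kb: chromosome 17 at 26.645 Mb (Dusp1) and 31.993 Mb (Sik1), chromosome 11 at 68.909 Mb (Per1) and chromosome 1 at 193.007 Mb (Atf3). That gave 181 of the 497658 peaks of all lists. Merged where peaks of any libraries touched, they formed 35 of 128823 regions: 4 at Dusp1, 5 at Sik1, 16 at Per1 and 10 at Atf3.

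The dentate gyrus is the hippocampal field of granule neurons, and ATAC-seq finds accessible DNA by where a transposase can insert sequencing adapters. Each of 11 libraries came from the microdissected dentate gyrus of 1 adult C57BL/6 mouse, 8 weeks old, infected with an adeno-associated virus (AAV) that expressed an shRNA. The groups were shRNA-cFos E1 (2 libraries), shRNA-cFos E0 (3), shRNA-Ctrl E1 (3) and shRNA-Ctrl E0 (3). The series concerns neuronal activation, and the deposited E0 lists are named as sham. The labels used here name no stimulus or time for E1. All 4 groups, controls included, carried a virus. The c-Fos shRNA was set against a control shRNA, and the peak lists do not show how far c-Fos, an AP-1 subunit, was reduced or how many cells were infected. Peak positions without an annotation of build mm9 allowed no check of the tissue against marker genes. In bulk tissue, fewer cells with an open site and less opening per cell cannot be told apart.

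Dusp1 is a phosphatase that inactivates MAP kinases, the kinases that carry growth factor and calcium signals to the nucleus. Sik1 is a salt-inducible kinase; it phosphorylates the CRTC coactivators of CREB and so keeps them out of the nucleus, and its own gene is a CREB target. Per1 is a repressor of the circadian clock whose gene also responds to CREB through cAMP response elements. Atf3 is a stress- and activity-inducible bZIP factor of the ATF/CREB family that often represses transcription.

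The promoter sequences show which of these response elements lie beside annotated RefSeq starts. Whether those are the mm9 starts used for the peaks was not checked. RefSeq sequences of build GRCm38.p6, from 250 bases before to 50 after an annotated start, were at hand for 3 of the 4 genes: Dusp1, Atf3 and Per1, which has 2 annotated starts 1203 bp apart. They lie at chr17:26508423-26508722 on the minus strand (Dusp1), chr11:69098699-69098998 and chr11:69099902-69100201 on the plus strand (Per1) and chr1:191183284-191183583 on the minus strand (Atf3). Capitals mark the cAMP response element TGACGTCA, its shorter core TGACG or CGTCA, and the E-box CACGTG to which clock factors bind.
Dusp1: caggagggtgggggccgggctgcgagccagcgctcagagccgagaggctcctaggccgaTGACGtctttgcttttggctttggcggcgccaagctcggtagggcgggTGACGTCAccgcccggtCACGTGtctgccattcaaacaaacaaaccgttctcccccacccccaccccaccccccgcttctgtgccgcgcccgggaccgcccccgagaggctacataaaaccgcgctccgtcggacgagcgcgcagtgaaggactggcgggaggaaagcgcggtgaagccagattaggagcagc
Per1, start 1: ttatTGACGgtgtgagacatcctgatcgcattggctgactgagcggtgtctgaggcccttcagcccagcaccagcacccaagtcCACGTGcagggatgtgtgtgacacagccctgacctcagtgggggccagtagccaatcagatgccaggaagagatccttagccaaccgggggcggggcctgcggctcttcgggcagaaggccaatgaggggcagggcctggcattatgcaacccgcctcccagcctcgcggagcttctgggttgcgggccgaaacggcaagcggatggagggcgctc
Per1, start 2: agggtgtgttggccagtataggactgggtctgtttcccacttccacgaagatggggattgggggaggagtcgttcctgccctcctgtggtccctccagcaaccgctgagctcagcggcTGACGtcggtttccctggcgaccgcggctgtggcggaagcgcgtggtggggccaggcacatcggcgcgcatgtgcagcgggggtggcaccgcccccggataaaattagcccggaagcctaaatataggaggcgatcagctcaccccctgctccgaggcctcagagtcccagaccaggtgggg
Atf3: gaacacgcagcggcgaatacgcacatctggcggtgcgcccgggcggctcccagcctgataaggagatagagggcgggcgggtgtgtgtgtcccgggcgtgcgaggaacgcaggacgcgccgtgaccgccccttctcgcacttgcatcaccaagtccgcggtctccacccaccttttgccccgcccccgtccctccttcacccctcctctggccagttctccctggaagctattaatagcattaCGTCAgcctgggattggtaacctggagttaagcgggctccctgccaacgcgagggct

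The Dusp1 promoter held the full element TGACGTCA, which begins at base -143 from the start and which 1.79% of 32851 RefSeq promoters of this length held on either strand. Including the pair inside that element, it held 3 core matches, and an E-box began at base -126. Both Per1 promoters held 1 core match, and of the pair the one at start 1 also held an E-box, at base -166. Atf3 held 1 core match, at base -7. A core match was found in 20.8% of all promoters and an E-box in 7.15%. The 4 windows held 63.3% to 67% G and C bases, against a median of 52.7% over all promoters. Shares among promoters of like base content were not taken. The AP-1 motif TGANTCA (7.81% of promoters) and the serum response element (1.63%) had no match in these 4 windows on either strand. A match is a description of letters. These sequences are of another build than the peaks and were not placed inside them.

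The first question was whether a promoter peak recurred from animal to animal. A peak within 1 kb of the start was called in 11 of 11 libraries at Dusp1, Sik1 and Per1, and in 9 of 11 at Atf3. At Atf3 it was called in both shRNA-cFos E1, all 3 shRNA-cFos E0, all 3 shRNA-Ctrl E1 and 1 of 3 shRNA-Ctrl E0 libraries. The promoter regions spanned chr17:26644485-26646378 (Dusp1), chr17:31991549-31993790 (Sik1), chr11:68907812-68909256 (Per1) and chr1:193006193-193008033 (Atf3). These counts did not change when every list was shortened to its 25145 highest-scoring peaks, the length of the shortest list. With a score of at least 100 the Dusp1 promoter was left in 9 libraries and the Atf3 promoter in 7, of which 5 were E1 and 2 E0. That minimum left lists of unequal length, 16968 to 42785 peaks at E1 and 12071 to 40760 at E0. No share over all regions was taken there, so these counts have no comparison with the genome. Of all 35 regions, 4 (11.4%) were called in all 11 libraries, against 9.16% of all regions, and 10 (28.6%) in 1 library only, against 37.9%.

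**Figure D1:**
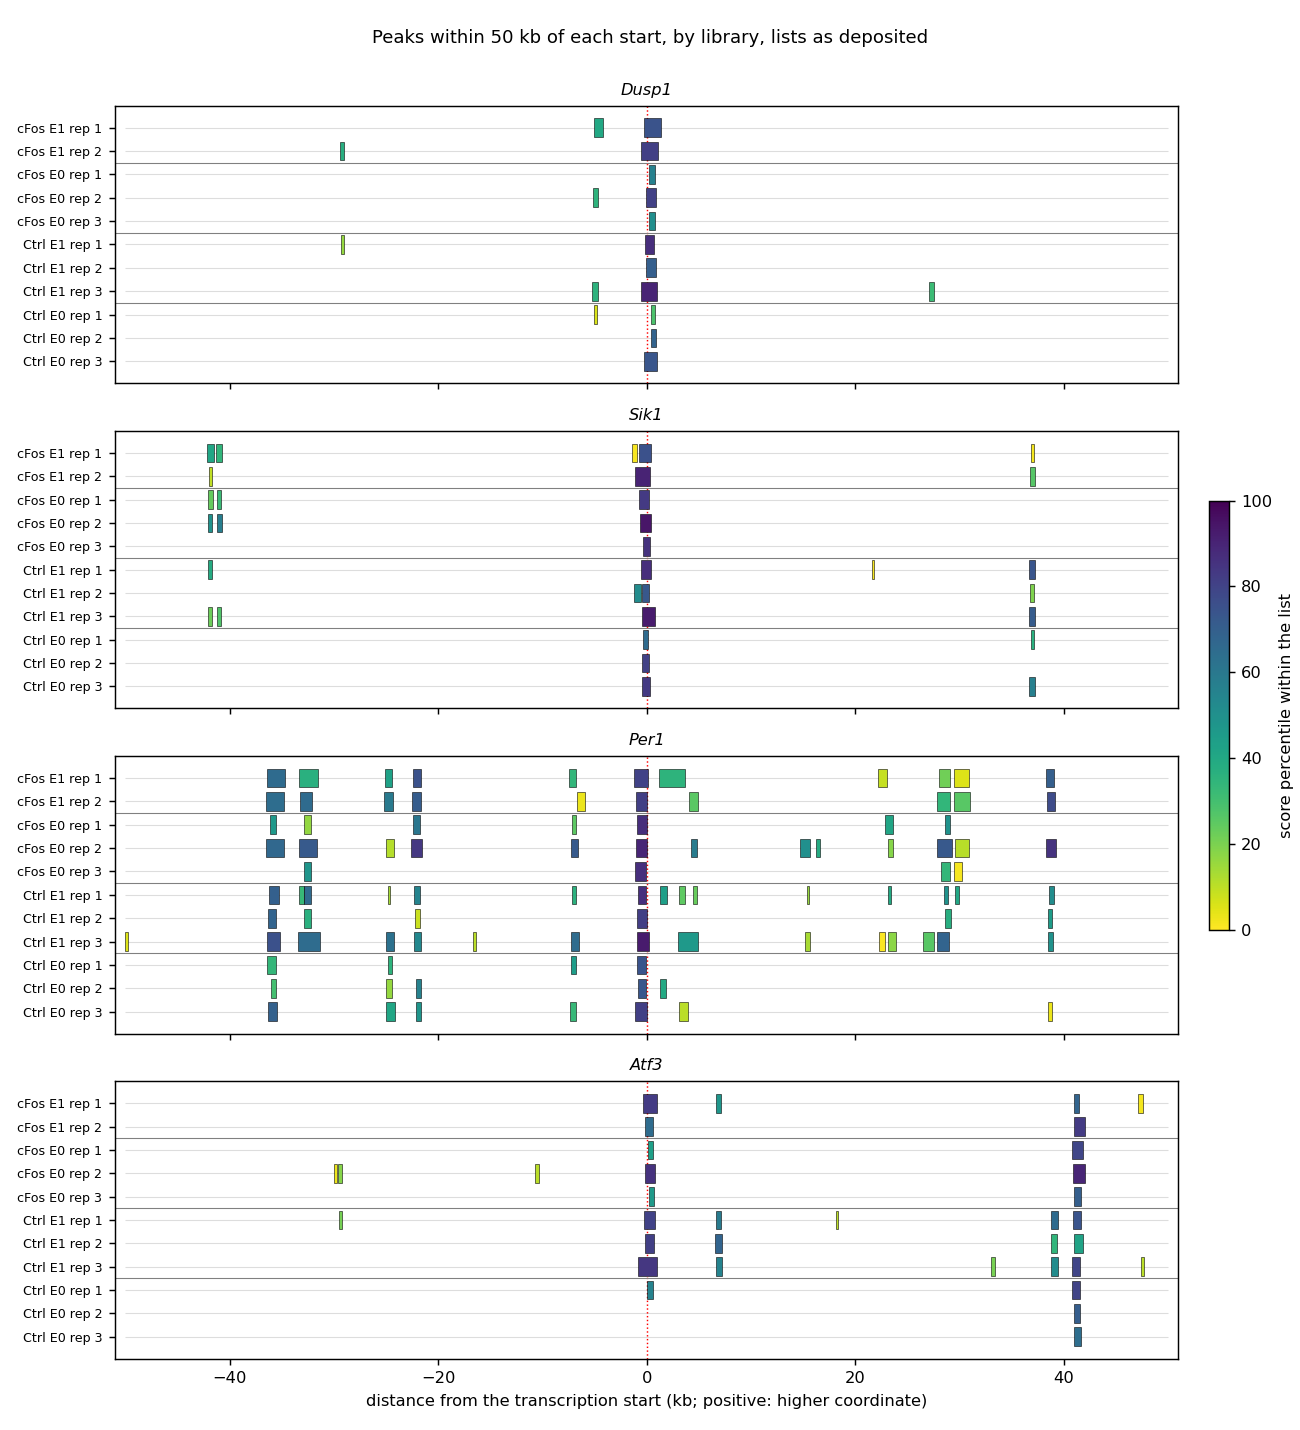
Peaks of each library (rows, by group) within 50 kb of the 4 starts, drawn to scale by distance from the start in kb, positive towards higher coordinates; the colour gives the score percentile of the peak within its own list. A peak at the start recurred in 11 of 11 libraries at Dusp1, Sik1 and Per1 and in 9 at Atf3, Per1 lay among 16 regions, and an Atf3 region 41.4 kb away was called in all 11.

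Promoter peaks were ranked by the percentile of their score among the peaks of the same list, since the scale of the score is not stated. An absent peak was set to 0. The Per1 promoter averaged 83.2 ± 5.97 (SD, n = 11 libraries), Sik1 82.7 ± 8.88, Dusp1 69.2 ± 18.1 and Atf3 56.7 ± 31.99. Per1 and Sik1 did not differ beyond their spread, with Per1 higher in 5 of 11 libraries. Sik1 ranked above Dusp1 in 11 of 11 libraries and Per1 above Dusp1 in 9. Dusp1 ranked above Atf3 in 7 of 11, so that pair was not separated. Among the 11796 regions called in all libraries the median percentile was 81.4. The Dusp1 promoter lay above 24.3% of them, Sik1 above 53.1% and Per1 above 54.0%.

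At Atf3 the promoter percentile was 82.7 and 65.0 in shRNA-cFos E1, and 43.5, 85.8 and 45.7 in shRNA-cFos E0. It was 80.3, 81.4 and 84.0 in shRNA-Ctrl E1, and 55.4, 0 and 0 in shRNA-Ctrl E0. All shRNA-Ctrl E1 libraries lay above all shRNA-Ctrl E0 libraries, while the shRNA-cFos groups overlapped. Averaged over both shRNA groups, E1 minus E0 was 39.5 percentile points (two-sided exact permutation p = 0.04, labels permuted within shRNA groups; adjusted p = 0.528 over all regions). At equal list length the difference was 25.3 points (exact p = 0.08). Without the 3 longest lists it was 46.1 points, but shRNA-Ctrl E1 was then left with replicate 2 alone. Leaving out any 1 library other than shRNA-cFos E0 replicate 2 or shRNA-Ctrl E0 replicate 1 gave 34.9 to 43.9 points with exact p from 0.05 to 0.1.

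The Dusp1 promoter percentile was 74.5 and 81.5 in shRNA-cFos E1, and 56.5, 80.6 and 50.6 in shRNA-cFos E0. In shRNA-Ctrl it was 86.9, 70.1 and 90.1 at E1, and 28.3, 68.6 and 73.3 at E0. The lowest value of each shRNA group was at E0, and E1 and E0 overlapped in both. E1 minus E0 was 20.5 points (exact p = 0.05; adjusted p = 0.584) and 13.0 points at equal list length (exact p = 0.115). It was 25.04, 23.6 and 24.7 points without shRNA-cFos E0 replicate 2, shRNA-Ctrl E1 replicate 2 or shRNA-Ctrl E0 replicate 3 (exact permutation p = 0.0333, 0.04 and 0.04). Over all single leave-outs it ranged from 13.4 to 25.04 points, with exact permutation p from 0.0333 to 0.125. The difference over all 11 was greater than that of 93.0% of the regions called in all libraries, whose median was 3.8 points. Among the equal-length lists it was greater than that of 93.8%, with a median of -0.90 points. The mean percentile of the Dusp1 promoter lay above 24.3% of these regions as deposited and 13.0% at equal list length. Its difference was not compared with that of regions of like rank.

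Sik1 had 75.2 and 90.2 in shRNA-cFos E1 and 82.99, 94.5 and 85.8 in shRNA-cFos E0. In shRNA-Ctrl it had 87.0, 72.7 and 92.8 at E1, and 65.4, 80.6 and 83.1 at E0. Per1 had 80.1 and 81.3 in shRNA-cFos E1 and 86.8, 89.7 and 86.4 in shRNA-cFos E0. In shRNA-Ctrl, Per1 had 86.7, 81.9 and 92.6 at E1, and 74.5, 73.3 and 81.6 at E0. Neither promoter passed the test between states: E1 minus E0 was 1.37 points at Sik1 (exact p = 0.815) and 1.83 at Per1 (exact p = 0.63). Shortening the lists turned both differences, to -10.8 points at Sik1 (exact p = 0.125) and -8.59 points at Per1 (exact p = 0.115).

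**Figure D2:**
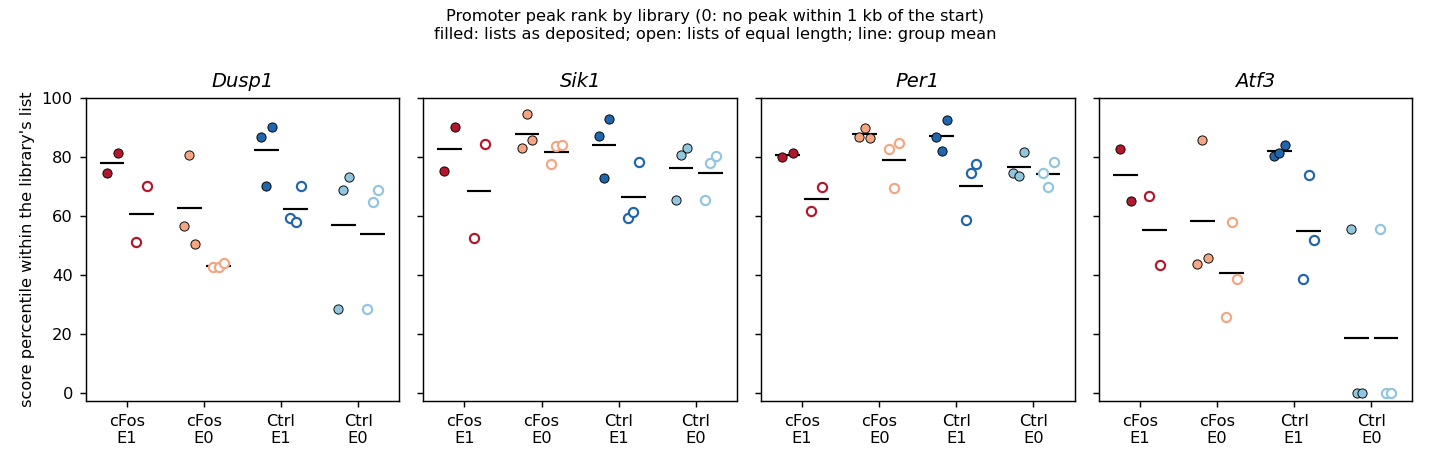
Score percentile of the promoter peak within its own list, by group, with filled points for lists as deposited, open points for lists of equal length, 0 for no peak and lines for group means. The Atf3 promoter was absent in 2 of 3 shRNA-Ctrl E0 libraries, and Sik1 and Per1 stayed above 65 in all 11 libraries as deposited.

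The promoter peaks of Dusp1, Sik1 and Atf3 were wider at E1 than at E0 by an unadjusted test over the 11 animals, and that of Per1 did not pass it. At Atf3 an absent peak entered the test as 0 bp, so its difference mixes absence of the peak with width. Shortening a list does not alter the width of a promoter peak that stays in it, and the widths were the same in both list settings. The Dusp1 peak was 1613 and 1640 bp wide in shRNA-cFos E1, against 560, 949 and 549 bp in shRNA-cFos E0. It was 898, 904 and 1513 bp in shRNA-Ctrl E1, against 429, 500 and 1260 bp in shRNA-Ctrl E0. The shRNA-cFos groups did not overlap, and the shRNA-Ctrl groups overlapped through E0 replicate 3. Over both, it averaged 1314 ± 380 bp at E1 (SD, n = 5) and 708 ± 326 bp at E0 (n = 6), a stratified difference of 658 bp (exact permutation p = 0.025). The lower edge of the peak lay between -516 and -51 bp of the stated start at E1 and between -239 and 397 bp at E0. The upper edge lay between 737 and 1378 bp at E1 and between 757 and 1021 bp at E0. Dusp1 is on the minus strand, so the lower edge points into the gene.

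The Sik1 peak was 1139 and 1382 bp wide in shRNA-cFos E1, against 1000, 1046 and 681 bp in shRNA-cFos E0. In shRNA-Ctrl it was 969, 737 and 1222 bp at E1, against 449, 724 and 757 bp at E0. E1 and E0 did not overlap in shRNA-cFos and did overlap in shRNA-Ctrl. E1 averaged 1090 ± 247 bp (n = 5) and E0 776 ± 220 bp (n = 6), a stratified difference of 342 bp (exact permutation p = 0.015). In 2 E1 libraries a further peak lay beside it in the same region, from -1452 to -965 bp in shRNA-cFos E1 replicate 1 and from -1252 to -520 bp in shRNA-Ctrl E1 replicate 2, and in no E0 library.

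Atf3 had promoter peaks of 1331 and 806 bp in shRNA-cFos E1, against 473, 945 and 448 bp in shRNA-cFos E0. Its peaks were 1068, 840 and 1841 bp in shRNA-Ctrl E1, against 626, 0 and 0 bp in shRNA-Ctrl E0, where 0 stands for no peak. The shRNA-Ctrl groups did not overlap and the shRNA-cFos groups did. E1 averaged 1177 ± 427 bp (n = 5) and E0 415 ± 367 bp (n = 6), a stratified difference of 744 bp (exact permutation p = 0.015). Per1 differed least, with 1333 and 1111 bp in shRNA-cFos E1, 957, 1029 and 1081 bp in shRNA-cFos E0, 723, 877 and 1134 bp in shRNA-Ctrl E1 and 845, 746 and 1079 bp in shRNA-Ctrl E0. Its difference was 110.5 bp (exact p = 0.245).

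**Figure D3:**
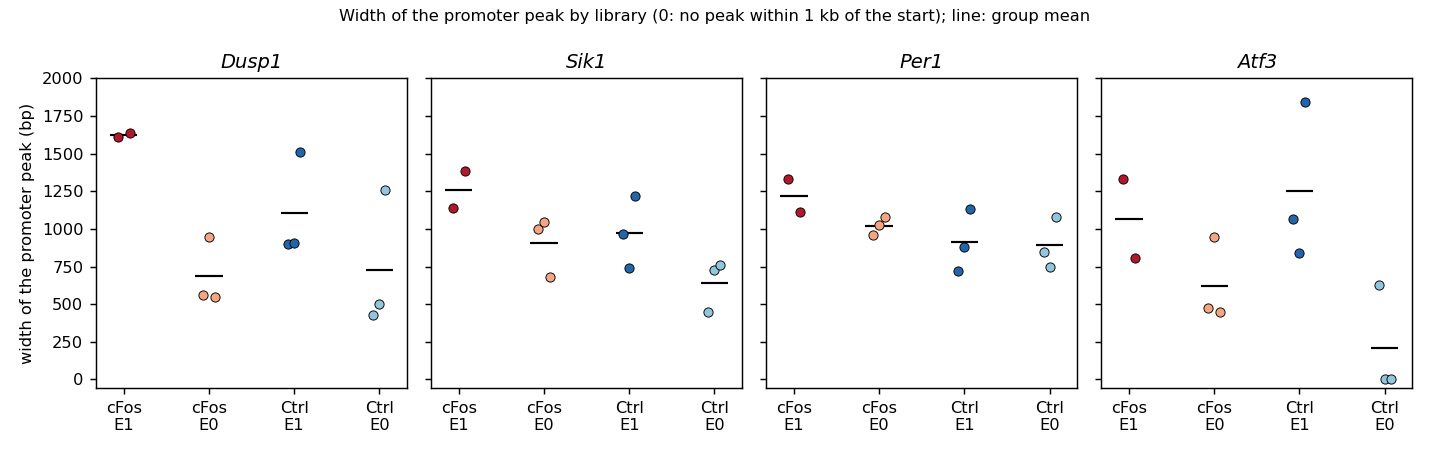
Width of the promoter peak in bp by group; points are libraries, lines are group means and 0 is no peak within 1 kb. Dusp1, Sik1 and Atf3 averaged 1314, 1090 and 1177 bp at E1 against 708, 776 and 415 bp at E0, and Per1 averaged 1036 bp at E1 against 956 bp at E0.

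List length moved with state in shRNA-Ctrl, where E1 lists held 35474 to 78349 peaks and E0 lists 25145 to 29519. In shRNA-cFos the states overlapped, with 48262 and 40627 peaks at E1 against 33134, 74432 and 28417 at E0. Regions called in all 11 libraries were also wider at E1 in general: 76.5% had a greater covered length at E1, and the median difference was 86.6 bp. Against those 11796 regions, the difference at the Dusp1 promoter was greater than in 97.9%, at Sik1 (586 bp over the whole region, exact permutation p = 0.005) than in 97.2% and at Per1 than in 57.0%. The merged Dusp1, Sik1 and Per1 regions were themselves wider than 79.0%, 88.3% and 55.9% of them. At equal list length the Sik1 difference was 464 bp, greater than in 95.7%, and that at Dusp1 was greater than in 98.4%. Shortening a list leaves the width of a kept peak unaltered, and the Dusp1 difference was the same in both settings. The equal-length ranks are therefore not a separate test of width. An unadjusted exact p under 0.05 for greater covered length at E1 was found at 2 of the 4 member regions called in all libraries, Dusp1 and Sik1, and at 11.2% of all such regions. Adjusted over all regions, the exact permutation p of the covered length was 0.417 at Dusp1, 0.33 at Sik1 and 0.358 at Atf3, so none passed. Without the 3 longest lists, the difference in peak width was 623 bp at Dusp1, 257 bp at Sik1 and 620 bp at Atf3. That left shRNA-Ctrl E1 with replicate 2 alone. Dusp1 and Sik1 did not pass there, and Atf3 is not read with so few libraries.

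Each of the 3 width calls was lost when certain single libraries were left out. At Dusp1 the exact p was 0.05 without any 1 of shRNA-cFos E0 replicates 1, 2 or 3 (626, 724 and 624 bp) or shRNA-Ctrl E0 replicate 1 (583 bp). At Sik1 it was 0.0875 without shRNA-cFos E1 replicate 2 (281 bp) and 0.05 without shRNA-Ctrl E0 replicate 1 (294 bp). At Atf3 it was 0.0625 without shRNA-cFos E1 replicate 1 (612.5 bp). Within 1 shRNA group no width difference could reach p under 0.1. Dusp1 differed by 940.5 bp in shRNA-cFos and 375 bp in shRNA-Ctrl, Sik1 by 351.5 bp in shRNA-cFos and 333 bp in shRNA-Ctrl, and Atf3 by 446.5 bp in shRNA-cFos and 1041 bp in shRNA-Ctrl. A test of these differences between the shRNA groups gave exact p = 0.2, 0.97 and 0.23 for Dusp1, Sik1 and Atf3.

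**Figure D4:**
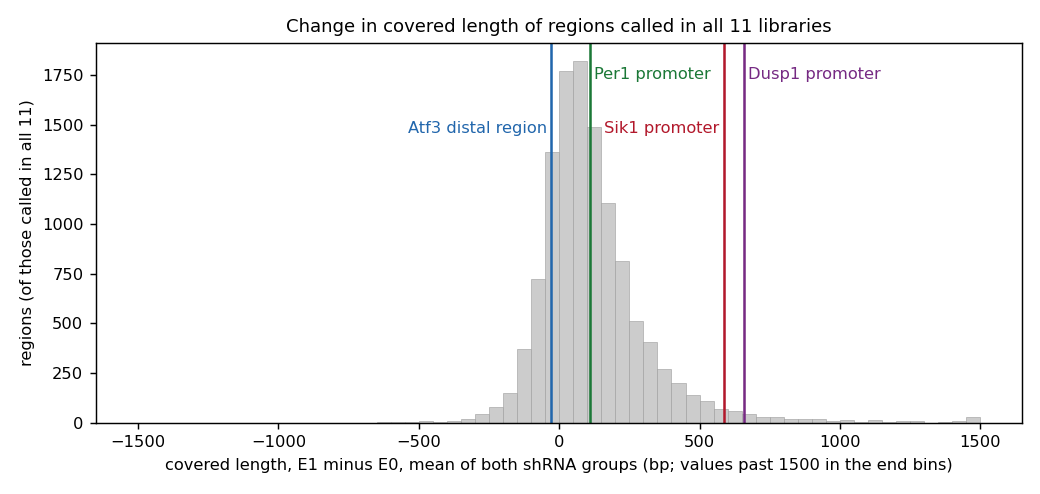
Histogram of the difference in covered length, E1 minus E0 in bp (mean of both shRNA groups), over the 11796 regions called in all 11 libraries, with lines at the 4 such regions near the starts. The Dusp1 and Sik1 promoters lay in the upper tail at 658 and 586 bp, Per1 near the middle at 110.5 bp and the Atf3 region 41.4 kb away below 0 at -29.1 bp.

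Around the promoters the 4 loci differed in how much open chromatin they held. Dusp1 stood nearly alone, with 2 and 2 peaks in the 100 kb window in shRNA-cFos E1, 1, 2 and 1 in shRNA-cFos E0, 2, 1 and 3 in shRNA-Ctrl E1 and 2, 1 and 1 in shRNA-Ctrl E0. Sik1 had 5 and 3 peaks in shRNA-cFos E1, 3, 3 and 1 in shRNA-cFos E0, 4, 3 and 4 in shRNA-Ctrl E1 and 2, 1 and 2 in shRNA-Ctrl E0. Its 2 shRNA-Ctrl groups did not overlap. Per1 lay in a cluster, with 11 and 10 peaks in shRNA-cFos E1, 7, 13 and 4 in shRNA-cFos E0, 15, 6 and 15 in shRNA-Ctrl E1 and 4, 5 and 7 in shRNA-Ctrl E0. Its window held more peaks than 99.9% of 23259 windows of 100 kb, and more than 98.8% of 19983 windows at equal list length. Atf3 had 4 and 2 peaks in shRNA-cFos E1, 2, 5 and 2 in shRNA-cFos E0, 6, 4 and 6 in shRNA-Ctrl E1 and 2, 1 and 1 in shRNA-Ctrl E0. The windows of Dusp1, Sik1 and Atf3 held more peaks than 49.2%, 73.6% and 79.2% of windows. The windows compared were a fixed grid, kept where any library had a peak, while each gene's window was centred on its start. Windows centred on other genes were not compared.

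Peak number in the window differed between states at Sik1, with 3.8 ± 0.837 peaks at E1 (SD, n = 5) and 2.0 ± 0.894 at E0 (n = 6), a difference of 0.73 in log2(peaks + 1) (exact permutation p = 0.03). In the shortened lists this difference was 0 (exact p = 1). On the scale log2(peaks per 10000 of a library's own list + 1) it was 0.16 (exact p = 0.27). The Sik1 window held 0.352 to 1.04 peaks per 10000, so the added 1 shrinks that value. As deposited, the difference in log2(peaks + 1) was 0.58 without shRNA-cFos E1 replicate 1 and 0.87 without shRNA-cFos E1 replicate 2. It was 0.56 without shRNA-cFos E0 replicate 3 and 0.63 without shRNA-Ctrl E0 replicate 2, and exact p in these 4 ran from 0.05 to 0.1375. At Per1 the difference was 0.72 (exact p = 0.075), at Atf3 0.74 (exact p = 0.08) and at Dusp1 0.36 (exact p = 0.17). The Per1 difference was 0.91 without shRNA-cFos E0 replicate 2 (exact p = 0.0333) and 0.92 without shRNA-Ctrl E1 replicate 2 (exact p = 0.04). Over all single leave-outs it ranged from 0.54 to 0.92, with exact permutation p from 0.0333 to 0.15. Shortening the lists gave -0.24 at Per1 (exact p = 0.38), 0.32 at Atf3 (exact p = 0.3) and -0.10 at Dusp1 (exact p = 1). Scaled to its list, the Per1 window held 1.41 to 2.46 peaks per 10000 in all 11 libraries. All shRNA-Ctrl E1 libraries had more peaks than all shRNA-Ctrl E0 libraries in 2 of the 4 windows, Sik1 and Atf3, as in 20.2% of all windows. After shortening, that held in 0 of the 4, against 4.81% of all windows.

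**Figure D5:**
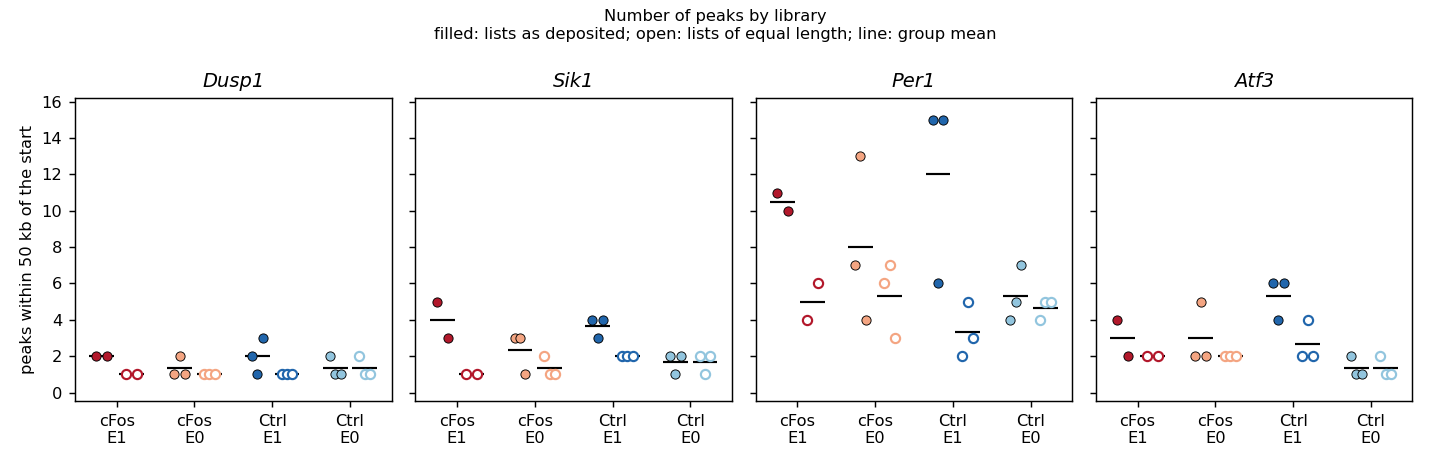
Number of peaks within 50 kb of each start by group, filled for lists as deposited and open for lists of equal length, with lines at group means. As deposited, E1 averaged 11.4 and E0 6.67 peaks at Per1; at equal list length E1 averaged 4.0 and E0 5.0.

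Within the Per1 cluster the direction between states depended on list length. As deposited, the percentile averaged higher at E1 in 13 of its 16 regions, against 67.4% of all regions. In the shortened lists this held in 3 of 10, against 41.0% of all regions. Among its regions outside the promoter, the highest mean percentile was at -35.6 kb, chr11:68872476-68874359, called in 5 E1 and 5 E0 libraries. There E1 minus E0 was 27.2 points (exact p = 0.065), and 34.4 points without shRNA-cFos E0 replicate 2 (exact p = 0.0333). Over all single leave-outs it ranged from 17.8 to 34.4 points, with exact permutation p from 0.0333 to 0.2625. Per1 is on the plus strand, so negative distances lie before the start. In the RefSeq gene order of GRCm38.p6 its neighbours are Vamp2 and Hes7, and which gene a region acts on is not shown by these lists.

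The Per1 region with a difference past the unadjusted threshold lay at 38.8 kb, chr11:68947255-68948273. Its percentile was 70.0 and 77.0 in shRNA-cFos E1, and 0, 85.5 and 0 in shRNA-cFos E0. It was 51.4, 45.1 and 49.1 in shRNA-Ctrl E1, and 0, 0 and 3.07 in shRNA-Ctrl E0. All 5 E1 and 2 of 6 E0 libraries called it, and shRNA-cFos E0 replicate 2, the longest list of its group, exceeded every E1 library. E1 minus E0 was 46.2 points (exact permutation p = 0.045, adjusted p = 0.571) and 20.5 points at equal list length (exact p = 0.2). Without shRNA-cFos E0 replicate 2 it was 60.5 points (exact p = 0.0167), and leaving out any 1 of the others gave 39.1 to 48.0 points with exact p of 0.05 or 0.06.

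An Atf3 region 6.92 kb from the start, chr1:193013591-193014246, was called in E1 libraries alone. Atf3 is on the minus strand, so this side lies before the start. Its percentile was 47.3 and 0 in shRNA-cFos E1, and 0 in all 3 shRNA-cFos E0 libraries. It was 58.9, 68.2 and 55.4 in shRNA-Ctrl E1, and 0 in all 3 shRNA-Ctrl E0 libraries. Thus 4 of 5 E1 and 0 of 6 E0 libraries called it (42.2 points, exact permutation p = 0.02, adjusted p = 0.352). Once lists were shortened 1 library did, shRNA-Ctrl E1 replicate 2. The exact p was 0.1 without shRNA-cFos E1 replicate 1 (30.4 points) and 0.05 without any 1 of the shRNA-cFos E0 libraries.

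Further out, 2 Atf3 regions lay close together. The region at 39.1 kb, chr1:193045812-193046481, had percentiles of 65.4, 34.8 and 51.9 in shRNA-Ctrl E1 and no call in any other group (25.3 points, exact p = 0.1). The one at 41.4 kb, chr1:193047751-193049028, was called in all 11. As deposited its percentile was 68.0 and 82.5 in shRNA-cFos E1, 79.1, 89.6 and 70.2 in shRNA-cFos E0, 74.1, 42.1 and 79.7 in shRNA-Ctrl E1 and 80.0, 70.4 and 64.4 in shRNA-Ctrl E0. E1 minus E0 was -5.38 points (exact p = 0.51). At equal list length its percentile was 38.6 and 71.7 in shRNA-cFos E1, 72.5, 69.3 and 66.4 in shRNA-cFos E0, 19.2, 18.3 and 38.6 in shRNA-Ctrl E1 and 80.0, 66.6 and 58.2 in shRNA-Ctrl E0. There the shRNA-Ctrl groups did not overlap, and E1 minus E0 was -28.6 points (exact permutation p = 0.015, adjusted p = 0.257). In that setting, the difference was greater than in only 0.967% of regions called in all libraries. Its mean percentile lay above 13.0% of them, and regions of like rank were not compared. On the minus strand both Atf3 regions, at 39.1 and 41.4 kb, lie before the Atf3 start, where the next gene in the GRCm38.p6 order is Nenf.

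Counted over the 35 regions, 3 had an unadjusted exact p under 0.05 with a higher percentile at E1, namely the Atf3 promoter, Atf3 at 6.92 kb and Per1 at 38.8 kb. That is close to the 7.76% of all regions. None had a lower one, against 0.127% of all regions. Among shortened lists there were 0 of 19 higher (6.72% of all regions) and 1 of 19 lower (3.76%), Atf3 at 41.4 kb. No region of the genome passed adjustment: the smallest adjusted exact p was 0.301 as deposited, with 10154 regions at an unadjusted p under 0.05, and 0.162 at equal list length, with 6211. The smallest p that these permutations can give is 0.005.

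Between E1 and E0 in shRNA-Ctrl, 4 of the 35 regions were called in all 3 E1 and no E0 library, against 6.04% of all regions. They were Per1 at -32.4 kb (chr11:68875600-68877654) and 28.5 kb (chr11:68936831-68938257) and Atf3 at 6.92 and 39.1 kb. In the opposite direction there were 0, against 0.0442%. The Per1 region at -32.4 kb had percentiles of 36.6 and 65.4 in shRNA-cFos E1, 16.1, 71.9 and 47.7 in shRNA-cFos E0, 65.6, 36.4 and 64.9 in shRNA-Ctrl E1 and 0 in all 3 shRNA-Ctrl E0 libraries. Its E1 minus E0 was 30.7 points (exact p = 0.08), and 37.4 points without shRNA-cFos E0 replicate 2 (exact p = 0.0333). Over all single leave-outs it ranged from 23.4 to 37.9 points, with exact permutation p from 0.0333 to 0.3. The one at 28.5 kb had 21.8 and 34.1 in shRNA-cFos E1, 49.0, 72.5 and 33.7 in shRNA-cFos E0, 49.2, 37.4 and 68.2 in shRNA-Ctrl E1 and 0 in all 3 shRNA-Ctrl E0 libraries (13.9 points, exact p = 0.375). So shRNA-Ctrl E0 was the group without either Per1 region. In shRNA-cFos, 1 region was called in both E1 and no E0 library (1.96% of all regions), Sik1 at 37.0 kb (chr17:32029691-32030290), and 0 the other way (0.548%). That Sik1 region had percentiles of 1.94 and 26.5 in shRNA-cFos E1 and 0 in all 3 shRNA-cFos E0 libraries, but 73.7, 19.4 and 71.2 in shRNA-Ctrl E1 and 36.3, 0 and 56.9 in shRNA-Ctrl E0, so its absence was not shared by the E0 groups.

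At equal list length 0 of the 19 regions were E1-only in either shRNA group. E0-only were Per1 at -24.7 kb (chr11:68883831-68884834) in shRNA-Ctrl, where 1.15% of all regions were, and Per1 at 28.5 kb in shRNA-cFos, where 1.54% were. The percentiles of the region at -24.7 kb were then 0 in all 3 shRNA-Ctrl E1 libraries, against 35.5, 4.84 and 30.7 in shRNA-Ctrl E0. The Per1 region at 28.5 kb had 0 in both shRNA-cFos E1 libraries, against 32.8, 18.6 and 25.1 in shRNA-cFos E0. As deposited all 5 E1 libraries called the region at 28.5 kb, so its absence in shRNA-cFos E1 depended on where the lists end. Its mean percentile was lower at E1 than at E0 in shRNA-cFos in both list settings, 28.0 against 51.7 as deposited, and higher at E1 in shRNA-Ctrl in both, 51.6 against 0 as deposited.

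The c-Fos shRNA was set against the control shRNA in each state. At E0, 2 of the 35 regions were called in all 3 shRNA-cFos and no shRNA-Ctrl library (1.11% of all regions), Per1 at -32.4 and 28.5 kb, and 0 the other way (0.0217%). At E1, 0 were called only in shRNA-cFos (0.534%) and 1 only in shRNA-Ctrl, Atf3 at 39.1 kb (1.59%). In the shortened lists at E0, Per1 at 28.5 kb was found only in shRNA-cFos (0.96% of all regions) and Per1 at -24.7 kb only in shRNA-Ctrl (0.418%). At E1 in the shortened lists, Per1 at -22.1 kb (chr11:68886404-68887412) was found only in shRNA-cFos (1.7% of all regions), at 51.5 and 52.9 against 0 in all 3 shRNA-Ctrl E1 libraries. As deposited all 5 E1 libraries called this region, at 74.7 and 70.8 in shRNA-cFos E1 and 54.9, 7.93 and 53.3 in shRNA-Ctrl E1, so the zeros came with shortening the lists.

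No promoter measure had an exact p under 0.05 between the shRNAs. The Sik1 promoter peak was 275 bp wider and the Per1 promoter peak 221.5 bp wider in shRNA-cFos than in shRNA-Ctrl, averaged over both states (exact permutation p = 0.05 and 0.07). The percentiles of the 4 promoters differed by 0.69 points at Dusp1, 4.98 at Sik1, 2.38 at Per1 and 15.9 at Atf3 (exact p = 0.935, 0.42, 0.545 and 0.29). The smallest adjusted p between shRNAs over all regions was 1 as deposited and 0.966 at equal list length. These comparisons share libraries with those between states. In all, 60 tests of the 4 loci were run per list setting.

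Among the remaining regions, Per1 at -6.67 kb was called in 4 E1 and 4 E0 libraries and Per1 at 3.08 kb in 4 E1 and 3 E0 libraries. The one at -6.67 kb had percentiles of 34.2 and 3.12 in shRNA-cFos E1, 25.1, 71.9 and 0 in shRNA-cFos E0, 36.3, 0 and 65.2 in shRNA-Ctrl E1 and 44.9, 0 and 32.8 in shRNA-Ctrl E0. The states overlapped (E1 minus E0 of -2.89 points, exact p = 0.895), and in the shortened lists 0 E1 and 4 E0 libraries called it (-14.0 points, exact p = 0.14). The one at 3.08 kb reached 46.5 at E1 and 58.2 at E0, and its difference was 12.2 points (exact p = 0.445). Outside the promoters, Dusp1 had 3 regions, of which the one with the highest mean percentile lay at -4.69 kb (chr17:26639790-26640832) and was called in 2 E1 and 2 E0 libraries. Sik1 had a pair of regions at -41.8 and -41.0 kb, of which the first was called in 4 E1 and 2 E0 libraries. At the window's edge, the last region inside on the low side of Per1, at -49.9 kb, was called in 1 library, while the next one outside, at -54.6 kb, was called in all 11 with a mean percentile of 64.4. On the high side of Dusp1 the last region inside lay at 27.3 kb (1 library) and the next outside at 53.6 kb (8 libraries). On the low side of Dusp1 they lay at -29.2 kb inside and -82.5 kb outside, at Sik1 at -41.8 and -65.2 kb on the low side and 37.0 and 58.5 kb on the high side, at Per1 at 38.8 and 52.2 kb on the high side, and at Atf3 at -29.8 and -57.1 kb on the low side and 47.4 and 56.0 kb on the high side. Mean percentiles of these ranged from 0.216 to 34.6 inside and from 0.179 to 11.2 outside.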

How the data were processed

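Per the labels, ATAC-seq libraries were made from the dentate gyrus of individual mice. Build mm9 and the aligner Bowtie2 are per the submitters' processing notes. Not given in the sources used here are read filtering, any shift for the transposase and the settings of MACS, the peak caller named in the deposited lists. The authors deposited 1 list of peaks per library, with positions and a score between 50 and 3100 whose scale is not stated, so the score only ranked peaks within a list and served for 1 minimum. Depth in reads is unknown, and lists held 25145 to 78349 peaks on chromosomes 1 to 19 and X (554 other peaks were left out), a 3.12-fold range to which a deeper library and more open chromatin can both contribute. Names of 9 lists carry an added word, of unknown meaning, that shRNA-Ctrl E1 replicates 1 and 3 lack. These are 2 of the 3 longest lists (78349 and 75908 peaks), so whether they were processed like the others is unknown, which bears on every value of shRNA-Ctrl E1 as deposited.

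Peaks sharing at least 1 bp were merged into regions, called in each library with a peak there. Values were compared by two-sided exact permutation tests over libraries, with E0 and E1 permuted within shRNA groups or shRNA labels within states, and region tests were adjusted by Benjamini-Hochberg over all regions. A promoter peak was the highest-scoring peak within 1 kb of the start. P-values measure the spread between these mice. Named by position are promoters, regions found only in 1 group in either list setting, regions called in nearly all libraries of 1 state and almost none of the other, those called in all libraries, and the highest-ranked other region per gene; others were named after their values were seen. The members and lists were chosen with earlier results of these data known. Alternatives were lists of equal length, a score of at least 100, windows of 25 and 100 kb, covered length, share of peaks, promoter distances of 500 bp and 2 kb, 50% coverage, merging within 200 bp, looser calls, called or not, the replicate block and each library left out; leaving out the 3 longest lists was chosen after seeing the data. A planned count over other pathway genes was not run, since no annotation of mm9 was used here. Code was tested on simulated lists. Tools were matplotlib 3.10.9, pandas 2.3.3, scipy 1.17.1 and numpy 2.4.6 under Python 3.11.15.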

Additional observations from a re-analysis of the deposited data

Results flagged for a closer look

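Whether E1 minus E0 differed between shRNA-cFos and shRNA-Ctrl was tested 78 times, as the shRNA-cFos value minus the shRNA-Ctrl value, over the 4 loci and their regions in both list settings. Exact permutation p was under 0.05 in 6 of them, which hold 5 distinct values, and of these the region tests did not pass adjustment over all regions (smallest adjusted p = 1), while the test of a peak number at Atf3 was not adjusted. The share of all regions with such a p is not given here, so 6 of 78 has no comparison with the genome. The Per1 promoter percentile had a difference of effects of -17.5 points (exact p = 0.01): E1 minus E0 was -6.94 points in shRNA-cFos and 10.6 points in shRNA-Ctrl, and neither pair of groups overlapped. At equal list length it was -9.09 points (exact p = 0.335). At Atf3 the number of peaks in the window had a difference of effects of -1.42 in log2(peaks + 1) (exact p = 0.045), with E1 minus E0 of 0.035 in shRNA-cFos and 1.45 in shRNA-Ctrl; in shortened lists it was -0.64 (exact p = 0.2). The Per1 region at 28.5 kb, absent in shRNA-Ctrl E0, had -75.4 points as deposited (exact p = 0.01) and -30.7 points in shortened lists (exact p = 0.02). The Per1 region at -24.7 kb had 40.7 points in shortened lists (exact p = 0.02) and 52.4 points as deposited (exact p = 0.065).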

How the results depend on the processing

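At equal list length, E1 minus E0 turned at the Sik1 promoter (-10.8 points), the Per1 promoter (-8.59), Per1 at 28.5 kb (-10.1), Dusp1 at -4.69 kb (-0.95), Sik1 at 37.0 kb (-9.13) and in the peak numbers of Dusp1 (-0.10) and Per1 (-0.24; log2 scale), fell to 0 in that of Sik1 and lost its call at the Atf3 promoter (25.3); the cause was not tested. On the scale log2(peaks per 10000 of a library's own list + 1) Dusp1 turned to -0.013 and Sik1 lost its call (0.16). A score of at least 100 turned the Sik1 peak number (-0.069) and Per1 at 28.5 kb (-0.064), and called that of Atf3 (0.74). Without the 3 longest lists the Sik1 and Per1 promoters turned (-2.67 and -0.23), and the Sik1 peak number (0.70) and the widths at Dusp1 (623 bp) and Sik1 (257 bp) lost their calls. In that setting shRNA-Ctrl E1 was left with replicate 2 alone. A window of 25 kb gave 0.34 at Sik1, and covered length 1.18 at Dusp1 and 1.26 at Atf3, both called. Whether replicate numbers pair the libraries was not settled. Deviations of same-numbered libraries correlated at -0.0449 to 0.117 and those of differently numbered ones at -0.113 to 0.0449. Both shRNA-cFos E1 libraries deviate by equal and opposite amounts, so their correlations mirror each other and cannot show pairing. With replicate numbers as a block, 5 pairs allow no exact p under 0.0625, so calls had to be lost: the Sik1 peak number (0.61), the Atf3 percentile (41.8) and the widths at Dusp1 (574 bp), Sik1 (294.6 bp) and Atf3 (768 bp), with 0 regions under 0.05.

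With 1 library left out, log2 peak number was 0.24 to 0.49 at Dusp1, 0.56 to 0.87 at Sik1, 0.54 to 0.92 at Per1 and 0.56 to 0.93 at Atf3; promoter percentile 13.4 to 25.04, -2.40 to 5.15, 0.44 to 3.11 and 34.9 to 48.7; and width 556 to 790.5, 281 to 403, 54.8 to 166 and 596 to 875 bp. The Sik1 percentile turned without shRNA-cFos E1 replicate 2 (-2.40), shRNA-Ctrl E1 replicate 3 (-0.79) or shRNA-Ctrl E0 replicate 1 (-1.37), Dusp1 at -4.69 kb without shRNA-cFos E1 replicate 1 (-0.90; range to 19.04) and Atf3 at 41.4 kb without shRNA-Ctrl E1 replicate 2 (0.42; range from -8.99).

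Regions found only in 1 group, as deposited and with 1 library left out, numbered 4 and 4 to 7 (shRNA-Ctrl E1 not E0), 0 and 0 (shRNA-Ctrl E0 not E1), 1 and 1 to 4 (shRNA-cFos E1 not E0), 0 and 0 (shRNA-cFos E0 not E1), 2 and 2 to 5 (shRNA-cFos not shRNA-Ctrl, E0), 0 and 0 to 1 (the reverse), 0 and 0 to 1 (shRNA-cFos not shRNA-Ctrl, E1) and 1 and 1 to 2 (the reverse). In that order they were 0, 1, 0, 1, 1, 1, 1 and 0 with lists of equal length and 9, 0, 7, 0, 7, 2, 1 and 3 with looser calls. They were 1, 0, 0, 0, 0, 0, 0 and 0 with a score of at least 100, 4, 1, 3, 0, 2, 1, 3 and 1 without the 3 longest lists and 2, 0, 1, 0, 0, 0, 2 and 1 with 50% of a region covered. Leaving out 1 library relaxes the rule of every library in 1 group and none in the other. Counts that did not fall there do not show stability. Shares over all regions were given above only for lists as deposited and of equal length. Counts in the other settings therefore have no comparison with the genome. Regions under an unadjusted p of 0.05 numbered 3, against 1 with lists of equal length, 1 by called or not and 0 to 5 with 1 library left out. For peak numbers, promoter measures and counts, alternatives not named here or beside the result kept direction and side of the threshold. Depth limits all of them, since reads are unknown and a short list can miss open sites.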
